A study of Mus musculus with 2 samples.

Results

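Neutrophils of livers that carried metastases of B16F10, a transplantable mouse melanoma line, were described from 2 single-cell RNA libraries. One library came from Vsig4 knockout mice (Vsig4-/-, here Vsig4 KO) and 1 from wild-type (WT) mice, and all mice of both groups bore the melanoma. Cells were live CD45+ singlets, sorted after collagenase and DNase digestion and red cell lysis, and were profiled with 10x Genomics 5′ chemistry. Strain, sex, age and the number of mice pooled per library were not given in the sources used here. A barcode was taken as a neutrophil when it held at least 5 UMIs (unique molecular identifiers, 1 per captured RNA molecule) of S100a8 and S100a9 together and at least 1 UMI of Csf3r, Retnlg, G0s2 and Il1r2 together. It also had to hold at most 2 UMIs of the C1q genes C1qa, C1qb and C1qc, none of the CD3 genes Cd3d, Cd3e and Cd3g, and none of the B cell gene Cd79a. The members were thus chosen by measured UMIs of these genes. The rule took 122 of 12618 barcodes, 44 of 5746 in the Vsig4 KO library and 78 of 6872 in the WT library. Levels of the rule's genes are given below as a description only.

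Neutrophils are short-lived phagocytes that are made in the bone marrow and arrive from blood. Their granule proteins are transcribed in order during maturation: primary granule enzymes such as myeloperoxidase (Mpo) and elastase (Elane) in promyelocytes, then the secondary granule proteins lactoferrin (Ltf), cathelicidin (Camp) and neutrophilic granule protein (Ngp) in myelocytes and metamyelocytes. Mature cells have largely stopped transcribing these genes and instead carry the chemokine receptor Cxcr2 and, when activated, transcripts of interleukin 1 beta (Il1b) and of the chemokines Cxcl2, Ccl3 and Ccl4. VSIG4, the deleted gene's product, is a complement receptor carried by Kupffer cells, macrophages that live in the liver sinusoids.

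The 3 genes that split the gated barcodes into granule-gene and mature cells were Ngp, Camp and Ltf, and their promoters are shown because that split carries much of what follows. All 3 lie on mouse chromosome 9, and each sequence runs from 250 bases before to 50 bases after the RefSeq start (build GRCm38.p6), 5′ to 3′ on the gene's strand. Capitals mark matches on either strand to TTGCNNAA, a form of the site bound by C/EBP factors, of which Cebpe is required for secondary granule genes. Ngp covers chr9:110419558-110419857 on the plus strand, Camp chr9:109849407-109849706 on the minus strand and Ltf chr9:111019042-111019341 on the plus strand.
Ngp: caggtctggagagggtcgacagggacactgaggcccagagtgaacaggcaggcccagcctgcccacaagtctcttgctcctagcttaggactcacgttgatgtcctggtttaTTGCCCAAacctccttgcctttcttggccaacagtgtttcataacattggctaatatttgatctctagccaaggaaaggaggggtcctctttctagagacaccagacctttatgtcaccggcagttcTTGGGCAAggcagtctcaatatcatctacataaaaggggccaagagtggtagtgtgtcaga
Camp: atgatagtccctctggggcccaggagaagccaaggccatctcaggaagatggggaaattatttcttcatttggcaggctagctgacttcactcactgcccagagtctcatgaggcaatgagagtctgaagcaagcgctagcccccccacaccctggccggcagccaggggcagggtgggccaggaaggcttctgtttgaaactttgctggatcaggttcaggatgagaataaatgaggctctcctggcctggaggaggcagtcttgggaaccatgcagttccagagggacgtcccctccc
Ltf: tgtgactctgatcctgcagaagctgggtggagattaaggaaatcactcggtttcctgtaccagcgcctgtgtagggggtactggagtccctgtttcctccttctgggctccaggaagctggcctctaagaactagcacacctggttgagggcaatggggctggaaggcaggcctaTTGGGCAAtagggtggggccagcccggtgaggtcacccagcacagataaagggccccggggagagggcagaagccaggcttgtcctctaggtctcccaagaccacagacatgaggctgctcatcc
Ngp held 2 matches, Ltf 1 and Camp 0, and 3547 of all 32851 mouse promoters of this length (10.8%) held at least 1. A match is a description of letters and was not tested for binding.

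The label was checked against genes of other cell types. Vsig4 gave 3 UMIs in the whole Vsig4 KO library and 43 in the WT library, and neither Vsig4 nor Cd5 gave a UMI in any gated barcode. All 8 erythroid genes of the list were at 0 in the gate of both libraries. The basophil and mast cell list of 10 genes gave 255 UMIs in the Vsig4 KO gate and 274 in the WT gate, of which 235 in Vsig4 KO and 274 in WT were Hdc, the histamine-forming enzyme gene, and Mcpt8, Cpa3, Fcer1a, Ms4a2, Prss34 and Cd200r3 were at 0 in both. The eosinophil list of 8 genes gave 17 UMIs in Vsig4 KO, 11 of them in 1 barcode, and 2 in WT. Monocyte genes were not at 0. Of the gated barcodes without granule genes, 8 in Vsig4 KO and 9 in WT held at least 2 UMIs of Ly6c2, Ccr2, Csf1r, F13a1, Fn1 and Ms4a4c together. These barcodes held 48.8% of the gate's UMIs in Vsig4 KO and 24.3% in WT. Calprotectin (S100a8 and S100a9) made up under 1% of the UMIs in 6 of the 8 in Vsig4 KO and in 5 of the 9 in WT. Natural killer genes (Ncr1, Klrb1c, Klre1, Nkg7 and Ccl5, at least 5 UMIs) marked 0 gated barcodes in Vsig4 KO and 4 in WT. MHC class II genes (H2-Aa, H2-Ab1 and Cd74, at least 10 UMIs) marked 1 in Vsig4 KO and 2 in WT. Results are therefore given both for the whole gate and for mature barcodes without any of these markers, a set chosen after the data had been seen; 2 Vsig4 KO and 4 WT barcodes with 1 or 2 granule UMIs are in neither class. That set held 31 Vsig4 KO cells with 59333 UMIs and 59 WT cells with 88129 UMIs, and is called mature neutrophils below. It was not free of barcodes with a calprotectin share under 1%: the lowest share was 0.699% in Vsig4 KO and 0.424% in WT. In mature neutrophils the classical monocyte list of 10 genes kept 19 UMIs in Vsig4 KO and 35 in WT, with F13a1, Ms4a4c and Vcan at 0 in both libraries, though part of that list served to choose them. The macrophage and Kupffer cell list of 14 genes gave 12 UMIs in Vsig4 KO and 37 in WT mature neutrophils, with Cd5l, Clec4f, Timd4 and Marco at 0 in both. The rule itself had capped C1qa, C1qb and C1qc, which are on that list. Not every list was low in mature neutrophils, in CPM (UMIs scaled to a common group total). The non-classical monocyte list of 8 genes stood at 1803 CPM in Vsig4 KO and 1657 CPM in WT. In all other cells it stood at 939 CPM in Vsig4 KO and 908 CPM in WT. The natural killer cell list of 12 genes stood at 6523 CPM in Vsig4 KO from 2 genes and 5855 CPM in WT from 3. In all other cells it stood at 5618 CPM in Vsig4 KO and 5779 CPM in WT.

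**Figure D1:**
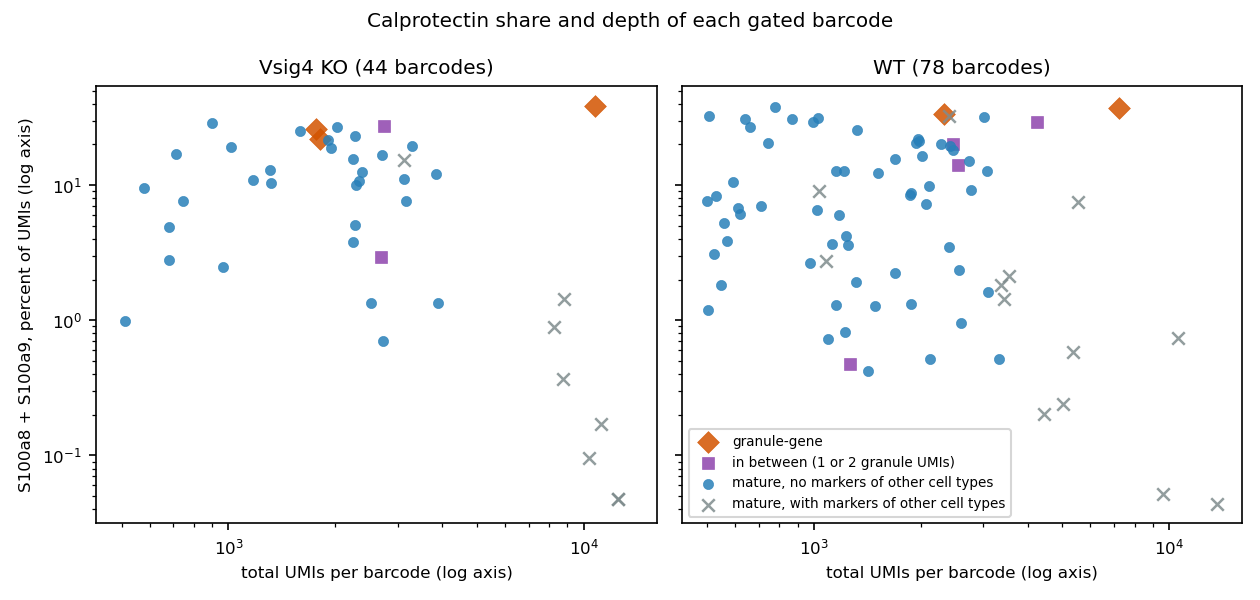
Each point is 1 gated barcode, in the Vsig4 KO library (left) and the WT library (right); the x axis is total UMIs and the y axis the percent of UMIs from S100a8 and S100a9, both on log axes. Granule-gene barcodes (3 in Vsig4 KO, 2 in WT) are among those with the highest calprotectin share, and barcodes with markers of other cell types lie mostly at high depth and low calprotectin share.

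The rule's edges were thin in both libraries. Just outside it, 3 Vsig4 KO and 7 WT barcodes had at least 5 calprotectin UMIs but no UMI of the 4 neutrophil genes, and 6 Vsig4 KO and 2 WT barcodes had 3 or 4 calprotectin UMIs. Just inside, 4 Vsig4 KO and 9 WT barcodes held 5 to 10 calprotectin UMIs, of which 3 in Vsig4 KO and 2 in WT carried monocyte genes. In the Vsig4 KO library 3 more barcodes with 172 to 231 granule-gene UMIs and 446 to 1514 calprotectin UMIs lay outside the rule, each with 1 or 2 CD3 UMIs and 1 of them also without a UMI of the 4 neutrophil genes. No such barcode was found in the WT library.

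Neutrophils made up 0.766% of Vsig4 KO barcodes (95% Clopper-Pearson interval 0.557 to 1.03) and 1.14% of WT barcodes (0.898 to 1.41), a ratio of 0.675 (0.455 to 0.989). Mature neutrophils made up 0.540% of Vsig4 KO barcodes (0.367 to 0.765) and 0.859% of WT barcodes (0.654 to 1.11), a ratio of 0.628 (0.393 to 0.987). With 1 library per genotype there is no replicate error: no test was run, and every interval here covers counting error only, not differences between mice, sorts or libraries. Intervals of UMI ratios, given below, also leave out spread between cells. Depth was unequal, with a median of 2026 UMIs in Vsig4 KO mature neutrophils and 1251 in WT ones. The libraries shared 54 cell barcodes, of which 2 were gated in either library.

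Mature neutrophils of both libraries carried a profile of secreted inhibitors, receptors and inflammatory mediators. In the sums, levels are in CPM (UMIs of a gene scaled to a group total of 1000000) and a gene is called at a ratio of 2-fold or more with at least 50 UMIs. Against all other cells, 220 of 429 genes (51.3%) were at least 2-fold higher in both libraries and 48 (11.2%) at least 2-fold lower; for the whole gate these were 289 (29.7%) and 94 (9.65%) of 974. The gate chose the cells, so these counts are a description. Levels of calprotectin, the calcium-binding S100a8/S100a9 pair, were 49129 and 68983 CPM in Vsig4 KO and 50903 and 58641 CPM in WT for S100a8 and S100a9. The granulocyte colony-stimulating factor receptor Csf3r stood at 2191 CPM in Vsig4 KO and 1781 CPM in WT, and the resistin-like gene Retnlg at 3910 CPM in Vsig4 KO and 2825 CPM in WT.

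Outside the rule's genes, the cysteine protease inhibitors of the stefin A family led. Cstdc4 stood at 1062 CPM in Vsig4 KO mature neutrophils and 1464 CPM in WT ones, with UMIs in 2 of the 5702 other Vsig4 KO cells and 4 of the 6794 other WT cells. Stfa2l1 stood at 455 CPM in Vsig4 KO and 1180 CPM in WT. These genes are near-identical copies of one another, so their separate counts are uncertain. Asprv1, an aspartic protease gene, was at 1079 CPM in Vsig4 KO and 1260 CPM in WT, and Il1f9, an interleukin 1 family cytokine gene, at 455 CPM in Vsig4 KO and 511 CPM in WT. The chemokine receptor gene Cxcr2 was at 624 CPM in Vsig4 KO and 442 CPM in WT, 317-fold and 196-fold over all other cells. Gelatinase B (Mmp9), of tertiary granules, was at 860 CPM in Vsig4 KO and 511 CPM in WT. The aconitate decarboxylase gene Acod1, whose product makes itaconate, was at 3388 CPM in Vsig4 KO and 3484 CPM in WT, and Trem1, an activating receptor, at 1129 CPM in Vsig4 KO and 930 CPM in WT.

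Mature neutrophils also held inflammatory transcripts that monocytes share. Il1b stood at 15287 CPM in Vsig4 KO mature neutrophils and 11041 CPM in WT ones, against 5432 CPM in Vsig4 KO and 3058 CPM in WT monocytes, taken by a separate rule on Ly6c2, Ccr2, F13a1 and Csf1r (222 Vsig4 KO and 574 WT barcodes). Cxcl2, a ligand of CXCR2, stood at 16888 CPM in Vsig4 KO and 28050 CPM in WT, against 3133 CPM in Vsig4 KO and 2202 CPM in WT monocytes. Lysozyme 2 (Lyz2) was lower in mature neutrophils, at 944 CPM in Vsig4 KO and 874 CPM in WT mature neutrophils against 12456 CPM in Vsig4 KO and 14106 CPM in WT monocytes. The MHC class II invariant chain Cd74 was at 185 CPM in Vsig4 KO and 182 CPM in WT mature neutrophils, against 8320 CPM in Vsig4 KO and 7372 CPM in WT monocytes. Barcodes with at least 10 UMIs of H2-Aa, H2-Ab1 and Cd74 together had been left out of mature neutrophils, but not of monocytes. The Cd74 gap is thus partly set by that choice. Against monocytes, 169 of 429 genes (39.4%) were at least 2-fold higher in mature neutrophils of both libraries and 53 (12.4%) at least 2-fold lower; for the whole gate these were 161 (16.5%) and 60 (6.16%) of 974.

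**Figure D2:**
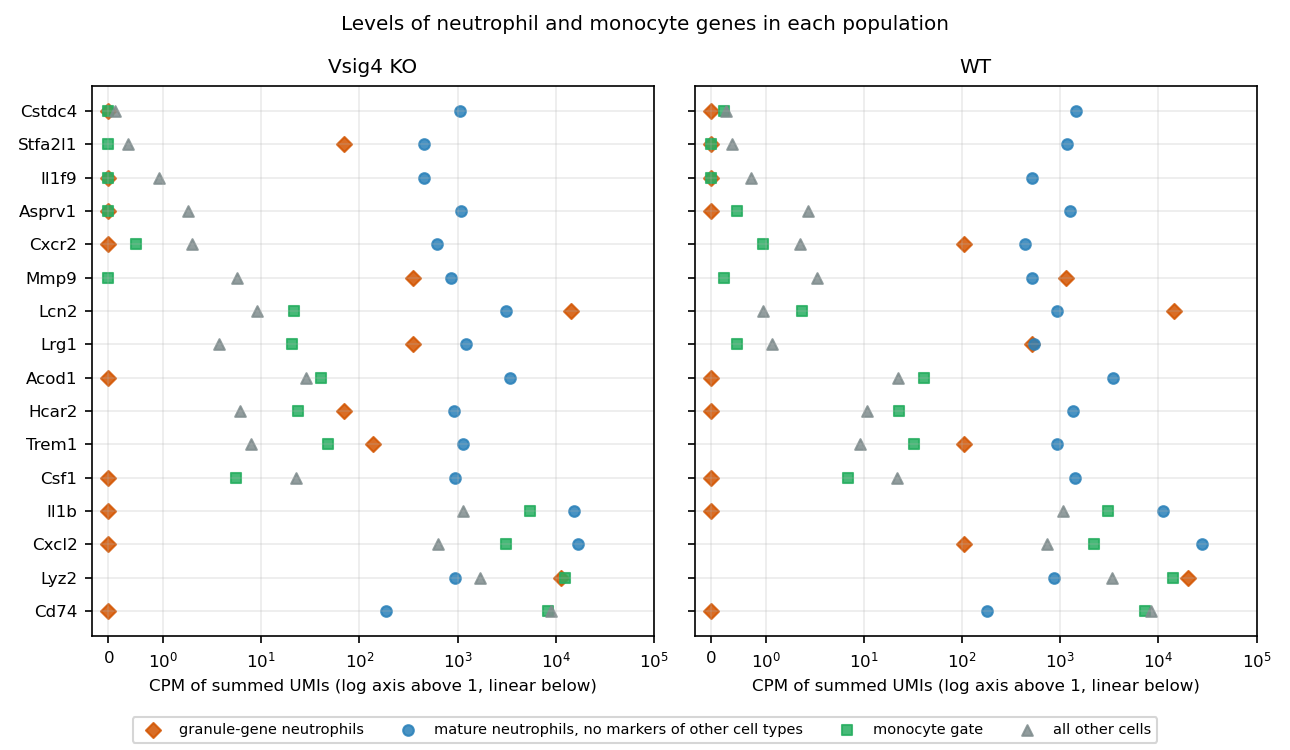
CPM of summed UMIs for 16 genes in the Vsig4 KO library (left) and the WT library (right), on an axis that is logarithmic above 1 CPM; symbols are granule-gene neutrophils, mature neutrophils, the monocyte gate and all other cells. Cxcr2, Cstdc4 and Asprv1 stand above 400 CPM in mature neutrophils and below 3 CPM in monocytes and other cells of both libraries.

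By list, the mature neutrophils stood high in receptors and low in translation genes against the other cells. Of 25 chemoattractant and growth factor receptor genes measured, 21 were at least 2-fold higher and 1 at least 2-fold lower in Vsig4 KO, and 17 and 1 in WT, with medians of 2.26 and 1.73 on the log2 scale against -0.60 and -0.53 over all genes. Counted the same way, 1370 of 13520 genes in Vsig4 KO and 1384 of 13658 in WT were at least 2-fold higher, and 1600 and 2171 at least 2-fold lower. Of 17 Fc and pattern receptor genes, 15 in Vsig4 KO and 12 in WT were at least 2-fold higher. Of 77 cytosolic ribosomal protein genes, 76 in Vsig4 KO and 75 in WT were at least 2-fold lower, and they held 31281 CPM in Vsig4 KO and 43924 CPM in WT mature neutrophils, against 212620 CPM in the other Vsig4 KO cells and 220342 CPM in the other WT cells. MHC class I genes were at least 2-fold lower in 9 of 11 members in each library. The class I gene H2-Q10 went the other way, ranking 15 among genes higher than in other cells and 8 against monocytes. Genes linked to suppressive neutrophils differed among themselves: Arg2 stood at 472 CPM in Vsig4 KO and 488 CPM in WT and the PD-L1 gene Cd274 at 455 CPM in Vsig4 KO and 284 CPM in WT, while Arg1 had 0 UMIs in mature neutrophils of both libraries and Nos2 had 1 UMI in Vsig4 KO and 0 in WT. In the whole Vsig4 KO gate Arg1 had 54 UMIs, all in 1 monocyte-marked barcode. Siglecf, a surface lectin of some tumour neutrophils and of eosinophils, gave 3 UMIs in Vsig4 KO and 1 in WT.

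Granule-gene cells were few, and they stood clear of the rest. With at least 3 UMIs of Ngp, Camp and Ltf together as the line, 3 of 44 gated barcodes in Vsig4 KO (6.82%, interval 1.43 to 18.7) and 2 of 78 in WT (2.56%, 0.312 to 8.96) were granule-gene cells, and the intervals overlap. Their granule UMIs were 1242, 162 and 162 in Vsig4 KO and 570 and 348 in WT, whereas the next gated barcode held 2 in Vsig4 KO and 1 in WT. The Vsig4 KO share leaves out 3 more barcodes with 172 to 231 granule UMIs, which lay outside the rule. WT had no such barcode. Thinning each barcode to 500 UMIs left both shares as they were. That outcome was nearly fixed in advance, since barcodes below the line cannot gain UMIs and the granule-gene cells lay far above it. Primary granule genes were not detected at this depth: Mpo, Elane and Ctsg had 0 UMIs in all 5 cells, as did Mki67 and Top2a, genes of dividing cells. Cebpe, the transcription factor of secondary granule genes, gave 1, 2 and 0 UMIs in the Vsig4 KO cells and 0 and 1 in the WT cells.

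Beside the 3 genes that split them, granule-gene cells stood higher than mature neutrophils in other secretory and granule genes in each library. The chitinase-like gene Chil3 had 51, 10 and 5 UMIs in the 3 Vsig4 KO granule-gene cells and 28 and 18 in the 2 WT ones, against 0 UMIs in 31 Vsig4 KO and 1 UMI in 59 WT mature neutrophils. Every granule-gene cell held Chil3, and 1 mature neutrophil did. Lipocalin 2 (Lcn2), an iron-siderophore binding protein of secondary granules, had 143, 32 and 30 UMIs in Vsig4 KO and 83 and 55 in WT granule-gene cells, and its ratio over mature neutrophils was 4.60 (3.75 to 5.65) in Vsig4 KO and 15.5 (11.7 to 20.6) in WT. Lyz2 had a ratio of 11.9 (8.77 to 16.5) in Vsig4 KO and 22.9 (17.5 to 30.3) in WT. Barcodes with markers of other cell types were left out of the mature set but not of the granule-gene class, which raises such ratios. Those left out held 1349 of the gate's 1577 Lyz2 UMIs in Vsig4 KO and 526 of 846 in WT. Of those in Vsig4 KO, 1 barcode held 38 Chil3 UMIs and another 15 Cybb UMIs. Ratios for Ifitm6, an interferon-induced transmembrane family gene, were 17.4 (8.29 to 41.0) in Vsig4 KO and 25 (10.1 to 70.3) in WT. The peptidoglycan-binding protein gene Pglyrp1 followed with 3.48 (2.42 to 4.99) in Vsig4 KO and 2.79 (1.83 to 4.14) in WT. All summed values of this class lean on 1 cell per library. It held 10801 of 14368 granule-gene UMIs in Vsig4 KO and 7249 of 9580 in WT. By cell, Pglyrp1 had 51, 6 and 2 UMIs in Vsig4 KO and 18 and 15 in WT. Ifitm6 had 34, 2 and 2 in Vsig4 KO and 13 and 6 in WT, and Cybb 17, 0 and 2 in Vsig4 KO and 12 and 2 in WT. Of the NADPH oxidase, the membrane subunits Cybb and Cyba had 33 and 55 UMIs in the 5 granule-gene cells, against 1 and 125 in the 90 mature ones.

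Genes lower in granule-gene cells included cytokine, chemokine and receptor transcripts of mature cells. Il1b had 0 UMIs in all 5 granule-gene cells, against 907 in Vsig4 KO and 973 in WT mature neutrophils, and over both libraries it was at least 102-fold lower, taking 3 counts over the group as the floor for a gene at 0. Cxcl2 had 0 UMIs in Vsig4 KO and 1 UMI in WT granule-gene cells, against 1002 in Vsig4 KO and 2472 in WT mature neutrophils. Ccl4 was at least 66.3-fold and Ccl3 at least 42.5-fold lower, each with 0 UMIs. Ferritin heavy chain (Fth1) had 7 UMIs in Vsig4 KO and 12 in WT granule-gene cells, against 1967 in Vsig4 KO and 3062 in WT mature neutrophils, a ratio of 0.015 in Vsig4 KO and 0.036 in WT. Cxcr2 had 1 UMI over the 5 granule-gene cells and 76 over the 90 mature ones, and Csf3r, a gene of the gating rule, 3 and 287.

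By list, 10 of 14 secondary and tertiary granule genes measured were at least 2-fold higher in granule-gene cells and 2 at least 2-fold lower, with the 3 split genes among them. The lower side held 11 of 13 cytokines and chemokines (median -7.20, log2), 12 of 12 NF-kB feedback and target genes (-3.85), 16 of 20 mature neutrophil genes (-2.25) and 15 of 20 chemoattractant and growth factor receptors (-2.78), against a median of -1.13 over all 1122 genes with at least 20 UMIs, the minimum for list members. Counted the same way, 78 of those 1122 genes were at least 2-fold higher and 483 at least 2-fold lower, and 70 (6.24%) and 314 (28%) were so in the same direction in each library. Over all genes with at least 50 UMIs, 24 of 468 (5.13%) were at least 2-fold higher and 256 (54.7%) at least 2-fold lower, in the same direction in each library. Most UMIs come from the 90 mature cells, so genes high in mature cells pass the minimum more readily, and these counts are no measure of how many genes differ. With all 111 mature barcodes in place of the 90, the counts were 30 (3.21%) and 345 (36.9%) of 934, or 115 (5.25%) and 345 (15.7%) of 2192 with a minimum of 20 UMIs. The granule-gene cells held no UMI of the macrophage and hepatocyte lists. Their monocyte list gave 16 UMIs in Vsig4 KO and 18 in WT, with Ccr2, Csf1r, F13a1, Fn1 and Vcan at 0, and Ly6c2, which is also carried by immature granulocytes, gave 13 UMIs in Vsig4 KO and 9 in WT. Their T cell list of 12 genes gave 7 UMIs in Vsig4 KO and 0 in WT. The rule had barred the CD3 genes of the T cell list and capped the C1q genes of the macrophage list, so these sums are partly set by it.

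**Figure D3:**
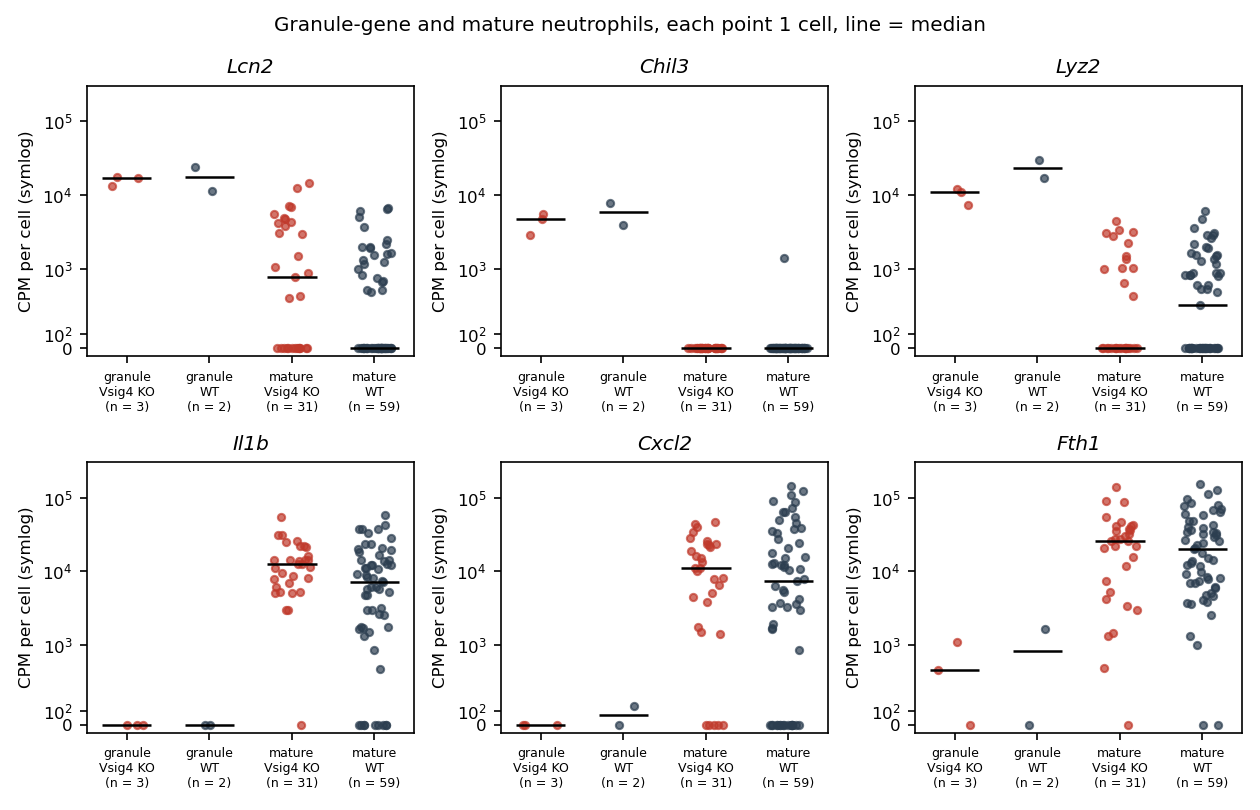
Each point is 1 cell and each line a median, as CPM per cell on a symmetric log axis, for granule-gene cells (3 Vsig4 KO, 2 WT) and mature neutrophils (31 Vsig4 KO, 59 WT). Lcn2, Chil3 and Lyz2 sit high in all 5 granule-gene cells, and Il1b is at 0 in all 5.

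Mature neutrophils were also divided by the chemokines Ccl3 and Ccl4, ligands that draw monocytes and T cells. Cells with at least 10 UMIs of the pair numbered 10 of 31 in Vsig4 KO (32.3%, 16.7 to 51.4) and 22 of 59 in WT (37.3%, 25 to 50.9), and cells with none 11 in Vsig4 KO and 23 in WT. The division was chosen after the data had been seen and cells were deeper in the high group, with a median of 2093 against 1312 UMIs in Vsig4 KO and 1829 against 993 in WT. High cells of WT held 364 Cxcl3 UMIs, in 10 of 22 cells, against 0 in cells with none; in Vsig4 KO the values were 52 UMIs, 45 of them in 1 of 4 cells, against 1. The lipopolysaccharide co-receptor Cd14 had ratios of 7.04 (4.23 to 12.5) in Vsig4 KO and 5.51 (3.41 to 9.42) in WT, and the inflammasome gene Nlrp3 4.16 (1.99 to 9.75) in Vsig4 KO and 4.67 (2.46 to 9.75) in WT. The high-over-none ratio was 0.282 (0.151 to 0.502) in Vsig4 KO and 0.284 (0.158 to 0.494) in WT for Wfdc21, and 0.194 (0.0657 to 0.474) in Vsig4 KO and 0.339 (0.208 to 0.542) in WT for Pglyrp1. Of 8 secondary and tertiary granule genes measured, 3 in Vsig4 KO (median -0.41, log2) and 5 in WT (-1.30) were at least 2-fold lower in high cells, against 36 of 304 and 90 of 496 genes in all. Lcn2 had a ratio of 0.809 (0.545 to 1.2) in Vsig4 KO and 0.284 (0.167 to 0.468) in WT, and Mmp9 1.11 (0.541 to 2.31) in Vsig4 KO and 0.664 (0.322 to 1.37) in WT. Calprotectin made up a median of 7.57% of UMIs in high and 13% in chemokine-free cells of Vsig4 KO, and 5.36% and 20.3% in WT. Over all genes, 28 of 319 genes (8.78%) were at least 2-fold higher in high cells of both libraries and 14 (4.39%) at least 2-fold lower, the chemokines themselves included.

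Between the genotypes, Vsig4 KO mature neutrophils held less of Ccl3, Cxcl3, Ptgs2, Hilpda and Mif and more of Lcn2 and Thbs1, each past 2-fold, while Il1b, Cxcl2 and Ccl4 were within 2-fold. Some of the lower ratios leaned on WT cells near the edge of the rule: with at least 20 calprotectin UMIs (28 Vsig4 KO and 49 WT cells) Hilpda had a ratio of 0.479 (0.217 to 0.978) and Mif 0.450 (0.243 to 0.791). Ccl3 lies on chromosome 11 (mm10, 83647844 to 83649355) and Lcn2 on chromosome 2 (32384633 to 32388252), both on the minus strand, and levels are summed over each whole gene. Ccl3 had a median of 1 UMI per cell in both libraries and a highest cell of 28 in Vsig4 KO and 87 in WT. It summed to 102 UMIs in 16 of 31 Vsig4 KO cells and 684 UMIs in 33 of 59 WT cells, a ratio of 0.222 (0.178 to 0.273). Its partner Ccl4 had a ratio of 0.861 (0.764 to 0.968), with 449 UMIs in Vsig4 KO and 775 in WT. These intervals leave out spread between cells, and a difference between Ccl3 and Ccl4 was not tested. After thinning to 500 UMIs, Ccl3 was found in 32.3% of Vsig4 KO cells (16.7 to 51.4) and 44.1% of WT cells (31.2 to 57.6), and in 1.12% of Vsig4 KO and 0.986% of WT B cells, whose median depths were 2836.5 and 2478 UMIs. Cxcl3 gave 62 UMIs in 6 Vsig4 KO cells and 365 UMIs in 11 WT cells, a ratio of 0.252 (0.190 to 0.331), and 45 and 125 of these came from 1 cell in each library, without which the ratio was 0.109. The cyclooxygenase 2 gene Ptgs2 had 43 UMIs in Vsig4 KO and 201 in WT, a ratio of 0.318 (0.223 to 0.444), with no cell above 5 UMIs in Vsig4 KO and 24 in WT. The hypoxia-induced lipid droplet gene Hilpda had 11 UMIs in 3 Vsig4 KO cells and 76 UMIs in 8 WT cells, with a ratio of 0.215 (0.103 to 0.407) and 0.118 without the top cell of each. Mif, a cytokine gene, had 22 UMIs in Vsig4 KO and 117 in WT, a ratio of 0.279 (0.169 to 0.443). Cxcl2 was lower by less, with a ratio of 0.602 (0.559 to 0.648), while Il1b was higher, at 1.38 (1.26 to 1.52). Taken from means of per-cell values scaled to depth, the Il1b ratio was 1.28. Its raw median per cell was 20 UMIs in Vsig4 KO and 10 in WT, at unequal median depths of 2026 and 1251 UMIs. The lowest ratios among the 429 genes were those of Stfa1, of the stefin A family, and of the osteopontin gene Spp1, each from few WT cells. Stfa1 had 3 UMIs in 2 Vsig4 KO cells and 57 in 3 WT cells, a ratio of 0.078 (0.016 to 0.240). Spp1 had 0 UMIs in Vsig4 KO and 52 in 4 WT cells, 39 of them in 1 cell, and was at least 11.7-fold lower with the floor of 3 counts.

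Among the higher genes, Lcn2 had a median of 1 UMI and a highest cell of 28 in Vsig4 KO, and a median of 0 and a highest cell of 14 in WT. It summed to 184 UMIs in 18 of 31 Vsig4 KO cells and 82 UMIs in 24 of 59 WT cells, a ratio of 3.33 (2.56 to 4.38), and the values of single cells overlapped. After thinning it was found in 45.2% of Vsig4 KO cells (27.3 to 64.0) and 27.1% of WT cells (16.4 to 40.3), intervals that overlap. In B cells the shares with Lcn2 were 0.204% in Vsig4 KO and 0.110% in WT before thinning, with no cell left after it. Outside the gate Lcn2 had 225 UMIs in Vsig4 KO and 27 in WT, of which 146 of the Vsig4 KO UMIs lay in the 3 granule-gene barcodes outside the rule. Without those barcodes 79 UMIs were left in Vsig4 KO (3.17 CPM), against 27 in WT (0.954 CPM). Haptoglobin (Hp) had a ratio of 1.99 (1.46 to 2.70), Lrg1, an acute-phase glycoprotein gene, 2.26 (1.55 to 3.32; 1.55 without the top cell of each library) and Wfdc21 1.77 (1.28 to 2.45). Thrombospondin 1 (Thbs1), a matrix glycoprotein, gave 119 UMIs in Vsig4 KO and 46 in WT, a ratio of 3.84 (2.71 to 5.52), of which 56 and 21 UMIs came from 1 cell in each library. For Zc3h7a, a zinc finger gene, 47 of 95 Vsig4 KO UMIs came from 1 cell, and the ratio was 3.71, or 2.21 without the top cell of each library. For the tissue transglutaminase gene Tgm2 the ratio was 3.18, or 2.11 without the top cell of each library. Rule genes were closer, with ratios of 0.965 for S100a8, 1.18 for S100a9 and 1.23 for Csf3r. Those for Retnlg, G0s2 and Il1r2 were 1.38, 1.03 and 1.17.

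Over all genes of mature neutrophils, 15 of 429 (3.5%) were at least 2-fold higher in Vsig4 KO and 26 (6.06%) at least 2-fold lower. In the whole gate, 66 of 974 (6.78%) were higher and 42 (4.31%) lower, so the split turned with the barcodes included. Several of the higher and lower genes of the whole gate had nearly all their UMIs in barcodes with markers of other cells. Cxcl10, a chemokine gene, had 168 UMIs in Vsig4 KO and 4 in WT, and 166 and 4 of these lay in monocyte-marked barcodes. All UMIs of Vcan (60 in Vsig4 KO, 3 in WT) and F13a1 (124 and 35) lay there too. On the lower side, all 98 WT UMIs of Ccr7 came from 1 barcode, as did all 54 of Ccl22, and 144 of 148 WT UMIs of Ccl5 lay in barcodes with markers of other cells. Ccl3, Cxcl3, Hilpda, Mif and Ptgs2 were at least 2-fold lower in Vsig4 KO in the whole gate too, with ratios of 0.295, 0.194, 0.231, 0.354 and 0.452, and Thbs1 and Tgm2 at least 2-fold higher, with 2.35 and 2.37. Lcn2 had a ratio of 1.66 there.

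**Figure D4:**
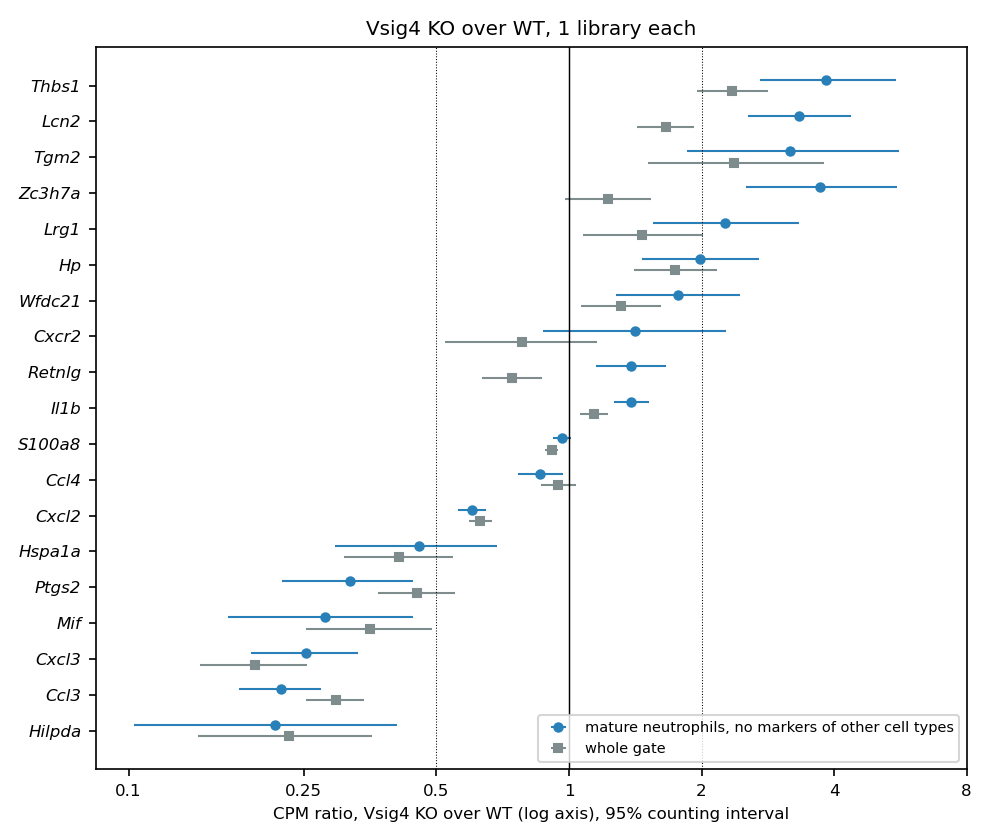
CPM ratios of Vsig4 KO over WT for 19 genes on a log axis, with 95% counting intervals, in mature neutrophils and in the whole gate; dotted lines mark 2-fold. Hilpda, Ccl3, Cxcl3, Mif and Ptgs2 lie below 0.5 in both sets, and Thbs1 and Tgm2 above 2 in both.

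By list, 9 of 13 cytokine and chemokine genes measured in mature neutrophils were lower in Vsig4 KO, 3 of them at least 2-fold, with a median of -0.42 on the log2 scale against -0.01 over all 1017 genes with at least 20 UMIs, of which 63 (6.19%) were at least 2-fold higher and 91 (8.95%) at least 2-fold lower. Glycolysis and hypoxia genes were lower in 14 of 19 members (median -0.23). Adhesion and migration genes were higher in 12 of 13 members (0.37), secondary and tertiary granule genes in 7 of 8 (0.29) and chemoattractant and growth factor receptors in 14 of 19 (0.30), with 0, 1 and 1 of them at least 2-fold higher. Cytosolic ribosomal protein genes were lower in 54 of 65 members (-0.37) and mitochondrially encoded genes in 10 of 10 (-0.89); both lists were added after the data had been seen. Mitochondrial UMIs made up 0.442% in Vsig4 KO and 0.797% in WT mature neutrophils, and 0.322% and 0.674% without the cell with most of them in each library. In the whole gate these 2 lists had medians of 0.08 and 0.12, and oxidative phosphorylation genes were at -0.25 in mature neutrophils and 0.43 in the whole gate, where 198 of 2257 genes (8.77%) were at least 2-fold higher and 169 (7.49%) at least 2-fold lower. RNA content per cell, sorting and mouse-to-mouse spread cannot be told apart from genotype with 1 library each, and the part of depth in these list values was not tested.

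**Figure D5:**
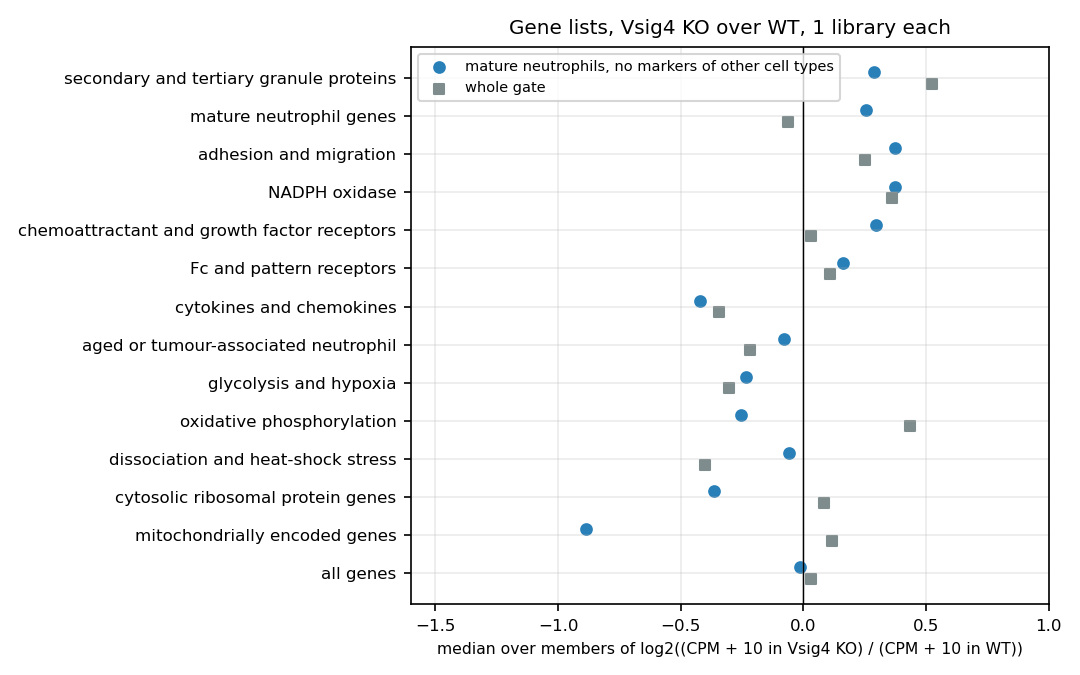
Median over list members of log2((CPM + 10) in Vsig4 KO over (CPM + 10) in WT), for mature neutrophils and the whole gate. Mitochondrially encoded genes sit at -0.89 and 0.12, and cytokines and chemokines at -0.42 and -0.34, in mature neutrophils and the whole gate.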

How the data were processed

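2 libraries of 10x Genomics 5′ chemistry, gene expression only, of liver CD45+ cells, 1 Vsig4 KO and 1 WT, were used. Per the submitters' processing notes, reads were counted with Cell Ranger 7.1.0 on mm10, and the deposited values are raw UMI counts of 31253 genes. The files held 5799 Vsig4 KO barcodes (25119175 UMIs) and 6929 WT barcodes (28537154 UMIs); barcodes with at least 200 genes, 500 UMIs and at most 10% mitochondrial UMIs were kept. The members and gene lists were chosen with earlier results of these data known. UMIs were summed per group and scaled to CPM. Of 480 list genes, 476 were found in the files.

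Shares carry Clopper-Pearson intervals and ratios conditional binomial intervals, at 95%, for counting error only; PCR and sorting error are not covered. A gene at 0 was set to 3 counts over the group, and never called in a direction that the counts do not show. Calls needed 2-fold and 50 UMIs; lists used a pseudocount of 10 CPM and members with at least 20 UMIs. Named genes were the gating genes, the highest and lowest of each comparison, and list members with most UMIs or past 2-fold; the text gives a choice of these made after their values were seen. Scrublet (scanpy 1.11.5) called 1 Vsig4 KO and 0 WT barcodes at its own threshold, so it did not work here, and removing the highest scores was tried as an alternative. The ratio and its calls were tried on simulated Poisson counts of the summed groups. Those counts had no spread between cells, so the trial cannot show how the ratios or intervals behave under such spread. Promoters came from RefSeq (GRCm38.p6), matched by symbol for 3 of 3 genes. No test across samples was possible. Python 3.11.15, scipy 1.17.1 and pandas 2.3.3 were used.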

Additional observations from a re-analysis of the deposited data

Results flagged for a closer look

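Comparing granule-gene with all mature gated barcodes, 8 of 934 genes were at least 2-fold apart in opposite directions in the 2 libraries. Among the genes named here these were Thbs1, Ccl5 and Retnlg, and the difference between the libraries was not tested. Thbs1 had a granule-gene over mature ratio of at most 0.085 in Vsig4 KO, with 0 UMIs in the granule-gene cells, and 4.52 in WT, where all 38 UMIs came from 1 cell. Retnlg, a gene of the gating rule, had ratios of 0.039 in Vsig4 KO and 2.90 in WT, and all 52 of its WT granule-gene UMIs came from that same cell. Ccl5 had 6 UMIs in Vsig4 KO granule-gene cells and 0 in WT ones, with ratios of 18.8 in Vsig4 KO and at most 0.333 in WT, and most of its WT mature UMIs lay in barcodes with markers of other cell types.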

How the results depend on the processing

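No paired analysis was possible because there was 1 library per genotype. The number of calls moved most with which barcodes and genes were counted; in each pair below the first number is genes higher and the second genes lower. For Vsig4 KO over WT, against 66 and 42, the counts were 29 and 24 with at least 20 calprotectin UMIs, 28 and 66 without monocyte-marked barcodes, 15 and 26 in mature neutrophils, 198 and 169 with a minimum of 20 UMIs per gene and 19 and 18 with 100. With the minimum of 20, granule-gene over mature gave 115 higher, neutrophils over other cells 453 and 152, and neutrophils over monocytes 280 and 117. Neutrophils over other cells gave 48 lower in mature neutrophils. Without monocyte-marked barcodes the granule-gene share was 2.94% in Vsig4 KO and 0 in WT, since 2 of 3 Vsig4 KO and both WT granule-gene cells held at least 2 UMIs of Ly6c2. In mature neutrophils with at least 20 calprotectin UMIs, an alternative chosen after seeing the data, Cxcl3 had a ratio of 0.359 and Cxcl2 of 0.703. The cause of the other moves was not tested. Of 300 ratios of named genes under these alternatives, 80 moved out of the counting interval of the main value, 29 of 207 list medians moved by more than 0.25 (log2), and no value past 2-fold changed sign. The number of granule-gene cells (3 and 2) and of mature cells sets the precision of every value.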
